A study of Mus musculus with 5 samples.

Results

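The replication-dependent histone genes encode the bulk of the histone protein that packages newly made DNA. In the deposited data 66 of 55484 genes carried a name of this family and formed the set described here: 5 H1 genes, 20 H2A genes, 17 H2B genes, 12 H3 genes and 12 H4 genes. The rule uses gene names alone, the current and the older mouse histone symbols, and holds no measured value. GL261 is a mouse glioma cell line. Its cells were exposed for 24 h to sodium propionate, the salt of a short-chain fatty acid, or to sodium chloride as the control salt, each at a labelled dose of 1 uM whose unit could not be checked. Total RNA was sequenced in 3 libraries of the chloride group (replicates 1, 2 and 3) and in 2 of the propionate group (replicates 2 and 3). A propionate library numbered 1 was not analysed here. The study examined transcriptional changes after propionate. The labels name no genetic change in the line. Nothing in them ties each library to a culture of its own, so a p-value here covers the spread between these 5 libraries alone, and that spread may be technical.

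Core histones H2A, H2B, H3 and H4 form the octamer around which DNA is wrapped, and the linker histone H1 binds where DNA enters and leaves that particle. Genes of this family lie in clusters, have no introns as a rule, and are transcribed mainly in S phase, when the coactivator Npat gathers at the clusters. Their messengers end in a conserved stem-loop rather than a poly(A) tail. The stem-loop is bound by Slbp, which acts in processing, export, translation and decay of the messenger. Total RNA libraries, unlike poly(A)-selected ones, can hold these messengers without a tail. As the samples are bulk RNA, fewer cells in S phase and less histone RNA per cell cannot be told apart in any value below.

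The stem-loop is shown first because it marks the messengers typical of this family. Whether the reads came from messengers that end there was not tested. The 16-base histone stem-loop consensus was found on the sense strand of the GENCODE M21 transcript models of 42 of 66 members, and in 44 of 55384 other genes (0.0794%). The matches in H1, H2A, H2B and H3 genes shared 1 stem sequence and differed in the loop, and the 11 matches in H4 genes had stems found in no other class. The form with the loop TTTC, as in H2ac4, was found in 24 members: 3 H1, 9 H2A, 7 H2B and 5 H3 genes. The form with the loop TTTA, as in H2bc3, was found in 2 H2B and 3 H3 genes, and the commonest H4 form, as in H4c6, in 6 H4 genes. Examples follow, 5′ to 3′, with the stem-loop in capitals and 5 bases on either side in lower case. They are, in each class, the member with the highest level among those with a match, together with H2ac4 for the commonest form, H4c2 for another H4 stem, and H2bc7 and H2bc9, which passed the test below.
H1f2 (H1): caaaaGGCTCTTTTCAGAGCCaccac
H2ac20 (H2A): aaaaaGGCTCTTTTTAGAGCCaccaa
H2ac4 (H2A): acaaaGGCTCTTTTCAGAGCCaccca
H2bc3 (H2B): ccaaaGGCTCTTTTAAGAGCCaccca
H3c2 (H3): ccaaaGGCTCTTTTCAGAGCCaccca
H4c6 (H4): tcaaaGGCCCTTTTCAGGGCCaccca
H4c2 (H4): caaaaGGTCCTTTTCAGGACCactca
H2bc7 (H2B): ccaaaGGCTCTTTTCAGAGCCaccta
H2bc9 (H2B): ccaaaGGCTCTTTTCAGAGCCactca

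No stem-loop was found in the models of the other 24 members, which include models as short as the 312 bases of H4c12, and this says nothing about their real messengers. The median change of the 41 tested members with a stem-loop in the model was -0.28 on the log2 scale. That of the 20 without was -0.33.

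Promoters are shown because the members moved together while their upstream sequences differ by class. RefSeq (GRCm38.p6) promoter windows were found for 57 members, and the 250 bases before the start were searched on both strands for 4 short motifs, each counted on its own whether or not matches overlapped. CCAAT, the box bound by the NF-Y factor, was present in 47 of 57 windows against 34.5% of all 27025 promoters. It was in all 16 H2A and all 15 H2B windows, in 5 of 5 H1, in 8 of 10 H3 and in 3 of 11 H4 windows. TATAAA, the TATA box core, was in 28 windows against 12.97% of all promoters. TTTGCAT, the core of the octamer element, was in 13 windows against 4.06%, and these belonged to 6 H2A, 6 H2B and 1 H4 gene. AAACACA, the H1 box, was in 8 windows against 6.22%, among them those of 4 of 5 H1 genes. Windows of H2A and H2B neighbours that start in opposite directions can cover the same bases, so 1 site can count in both. The TTTGCAT matches of H2ac12 and H2bc12, of H2ac8 and H2bc8, and of H2ac1 and H2bc1 are each 1 such site. CCAAT counts of the H2A and H2B windows also hold shared sites. Each match is a string of letters and not a shown binding site. The windows below, 5′ to 3′ in the direction of the gene with the motifs and their reverse complements in capitals, belong to the member with the highest level in each class and to H2bc7, whose window overlaps that of its divergent neighbour H2ac7.
H1f1, chr13:23763418-23763667, plus strand: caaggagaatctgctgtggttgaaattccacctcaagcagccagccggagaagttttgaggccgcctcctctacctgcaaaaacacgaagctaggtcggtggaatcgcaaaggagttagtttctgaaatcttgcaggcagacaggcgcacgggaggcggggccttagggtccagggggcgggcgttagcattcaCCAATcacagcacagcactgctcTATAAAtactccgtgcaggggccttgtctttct
H2ac20, chr3:96220881-96221130, minus strand: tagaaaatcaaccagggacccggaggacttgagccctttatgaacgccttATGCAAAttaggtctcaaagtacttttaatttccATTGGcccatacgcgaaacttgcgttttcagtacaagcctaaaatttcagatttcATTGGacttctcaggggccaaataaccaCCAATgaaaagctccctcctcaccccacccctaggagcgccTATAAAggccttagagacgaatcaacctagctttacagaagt
H2bc3, chr13:23746484-23746733, plus strand: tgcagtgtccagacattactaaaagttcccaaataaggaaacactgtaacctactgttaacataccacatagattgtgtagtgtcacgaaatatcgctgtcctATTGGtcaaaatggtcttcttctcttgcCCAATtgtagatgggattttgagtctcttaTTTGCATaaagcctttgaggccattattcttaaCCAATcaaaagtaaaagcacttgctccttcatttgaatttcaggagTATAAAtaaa
H3c2, chr13:23752095-23752344, plus strand: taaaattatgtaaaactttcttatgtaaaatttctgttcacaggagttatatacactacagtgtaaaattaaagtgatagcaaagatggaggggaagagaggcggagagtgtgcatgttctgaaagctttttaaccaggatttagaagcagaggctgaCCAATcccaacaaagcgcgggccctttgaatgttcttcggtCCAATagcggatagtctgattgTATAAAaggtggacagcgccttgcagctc
H4c6, chr13:23551669-23551918, minus strand: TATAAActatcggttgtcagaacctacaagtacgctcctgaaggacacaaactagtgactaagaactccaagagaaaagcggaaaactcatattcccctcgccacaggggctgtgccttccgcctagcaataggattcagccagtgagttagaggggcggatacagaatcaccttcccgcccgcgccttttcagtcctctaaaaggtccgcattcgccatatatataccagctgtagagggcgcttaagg
H2bc7, chr13:23574208-23574457, minus strand: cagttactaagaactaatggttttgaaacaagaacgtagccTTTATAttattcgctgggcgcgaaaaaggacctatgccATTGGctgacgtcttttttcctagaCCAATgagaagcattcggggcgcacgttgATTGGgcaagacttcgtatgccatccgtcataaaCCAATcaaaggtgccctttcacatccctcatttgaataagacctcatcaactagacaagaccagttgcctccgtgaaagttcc

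Of the 66 members, 56 lie on chromosome 13 and 10 on chromosome 3 (mm10). The first group on chromosome 13, from 21715763 to 22043676, holds 24 members of all 5 classes. The second group, from 23531050 to 23934851, holds 31, among them 4 of the 5 H1 genes. The group on chromosome 3, from 96219865 to 96270132, holds 10. A processed pseudogene, Hist1h2al, stands alone on chromosome 13 from 51202727 to 51203065 and was listed at 0 TPM in all 5 libraries. TPM, the unit of all levels below, is a level per length of transcript. Levels of single members also depend on the annotated models, which run from 312 bases in H4c12 to 7425 in H1f3, so that a model reaching far past the stem-loop gives a lower level. Reads can also be shared between near-identical members: cut into 75-base windows, 28 of 66 members had at least 50% of their windows in common with another member, and 6 had none.

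Summed histone RNA was lower in both propionate libraries in all 5 classes. A member was tested where its mean was at least 1 TPM, which left out H1f4, H2ac1, Hist1h2al, H3c13 and H2bc18. Of the 61 tested members, 57 had a change below 0 (55.5% of the 13877 genes tested did), and the median change was -0.29 on the log2(TPM + 1) scale against -0.03 over all genes tested. The libraries of the groups did not overlap, with propionate lower, in 51 members (19.7% of all genes) and with propionate higher in 0 (14.8% of all genes). With limma and Benjamini-Hochberg adjustment over all genes tested, 5 members fell (0.504% of all genes did) and 0 rose (1.31% of all genes did). At an unadjusted p under 0.05 these counts were 40 lower (8.91% of all genes) and 0 higher (7.93%). All members share the same 5 libraries and are not replicates of each other. None of the 5 calls held when any 1 library was left out, the controls included. The alternatives tried gave between 0 and 24 lower calls, with 19 by voom (2.59% of all genes fell and 5.10% rose by voom). The 24 came from TPM over protein-coding genes, where 405 of 11966 genes fell and 629 rose. That fit left out pseudogenes, the called member H2ac14 among them. The count with a change below 0 stayed between 55 and 60.

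The downward shift was present in each propionate library. Taken against the chloride mean, the median deviation of the members was -0.36 in propionate replicate 2 and -0.24 in replicate 3. In the chloride libraries it was -0.003, -0.05 and 0.06. Over all genes tested the same medians were -0.08 and 0.03 in propionate and 0.04, 0.002 and -0.04 in chloride. Replicate 2 was thus the lower of the propionate libraries for histone genes and for all genes.

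Values of 4 members jumped between 0 and high levels inside a group and are set apart: H2ac6, H2ac18, H2ac19 and H3c14. Among the 57 tested members without such jumps, 55 had a change below 0, and 5 fell. The 3 of these with a mean under 10 TPM were H2ac21, H2bc1 and H2bc21. In the 54 others every change was below 0, between -0.57 and -0.10 (H2ac14 and H1f2). Only H1f2, H4c1 and H4c3 among these 54 had overlapping groups.

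**Figure D1:**
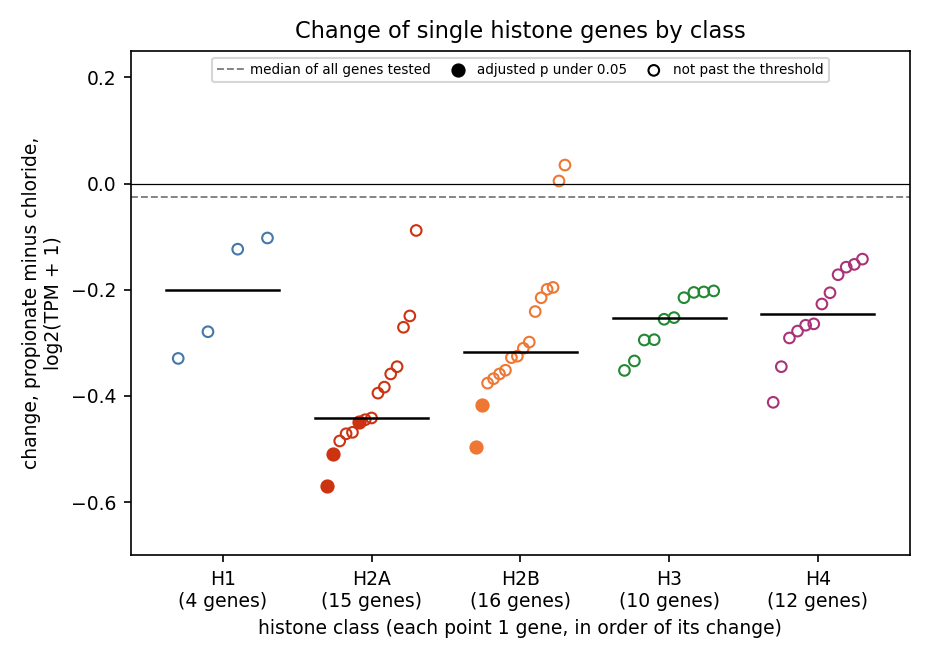
Each circle is 1 histone gene, placed by its propionate minus chloride difference in log2(TPM + 1) (y) and grouped by class (x); filled circles passed an adjusted p of 0.05, black bars are class medians and the dashed line is the median of all genes tested, -0.03. The 4 members with jumping values are not drawn. H2A genes sit lowest, with a median of -0.44, and 2 low H2B genes sit at or just above 0.

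H2A genes had the lowest median change of the 5 classes. All 15 tested H2A members without jumps had a change below 0, with a median of -0.44. Of these, 3 fell: H2ac14, H2ac10 and H2ac12. The difference between H2A and the other classes was not tested.

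H2ac14 is annotated as an unprocessed pseudogene of the first chromosome 13 group (21721457 to 21721808) and shares 92.4% of its 75-base windows with another member, so its reads are hard to place. Its level was 128, 123 and 141 TPM in the chloride libraries and 88.6 and 86.7 TPM in the propionate libraries. Every propionate value lay under every chloride value, and the change was -0.57 (SE 0.0911, limma adjusted p = 0.0243). The whole of its model is also covered on the other strand by Gm44357, listed at 30.6, 30.9 and 26.6 TPM in chloride and 40.0 and 21.5 TPM in propionate. Counting without a strand option cannot tell reads of these genes apart.

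H2ac10 encodes a canonical H2A and lies in the second chromosome 13 group (23533906 to 23534304). It has 70.5% of its windows in common with other members, so its reads are also hard to place. It stood at 166, 156 and 166 TPM in chloride and at 110.6 and 118 TPM in propionate, a fall from 163 ± 5.78 (SD, n = 3) to 114 ± 4.93 TPM (SD, n = 2). The groups were far apart against their spread, and the change was -0.51 (SE 0.0844, limma adjusted p = 0.0280). H2ac12 (22035164 to 22035568) stood at 139.9, 138 and 149.6 TPM in chloride and at 107 and 101 TPM in propionate. Its change was -0.45 (SE 0.0858, limma adjusted p = 0.0436), and over the alternatives its adjusted p ranged from 0.0235 to 0.162.

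The highest H2A level was that of H2ac20, on chromosome 3 (96220361 to 96220880), whose promoter is printed above. It stood at 397, 368 and 389.7 TPM in chloride and at 292 and 359 TPM in propionate. The groups did not overlap, but propionate replicate 3 was near the lowest chloride library, and the change of -0.25 did not pass (limma adjusted p = 0.275). H2ac4, the next, stood at 300.0, 258 and 299.9 TPM in chloride and at 187 and 222 TPM in propionate. Its change was -0.48, with a limma adjusted p of 0.0714 that fell under the threshold with median-of-ratios scaling, with TPM over protein-coding genes and with voom. H2ac7, H2ac11, Hist1h2an and Hist1h2ao had changes between -0.47 and -0.44 and adjusted p-values between 0.056 and 0.062. H2ac21 stood apart at only 3.80 to 6.67 TPM with a change of -0.09.

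H2B genes, the partners of H2A in the histone dimer, had a median change of -0.32 over 16 tested members. A change below 0 was found in 14, of which 2 fell: H2bc9 and H2bc7. H2bc9 (23541714 to 23543392) stood at 113, 99.9 and 112 TPM in chloride and at 74.2 and 78.7 TPM in propionate, a change of -0.50 (SE 0.0940, limma adjusted p = 0.0428). Its model runs on for 1214 bases past the stem-loop printed above. H2bc7 (23573736 to 23574196) stood at 188, 186 and 191 TPM in chloride and at 138 and 143 TPM in propionate, a change of -0.42 (SE 0.0794, limma adjusted p = 0.0436). Its chloride libraries were the closest together of the 5 members that fell, with an SD of 2.29 TPM. H2bc7 has 56.6% of its windows in common with other members, so its reads can also be shared. For H2bc9 this value is 11.2%.

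**Figure D2:**
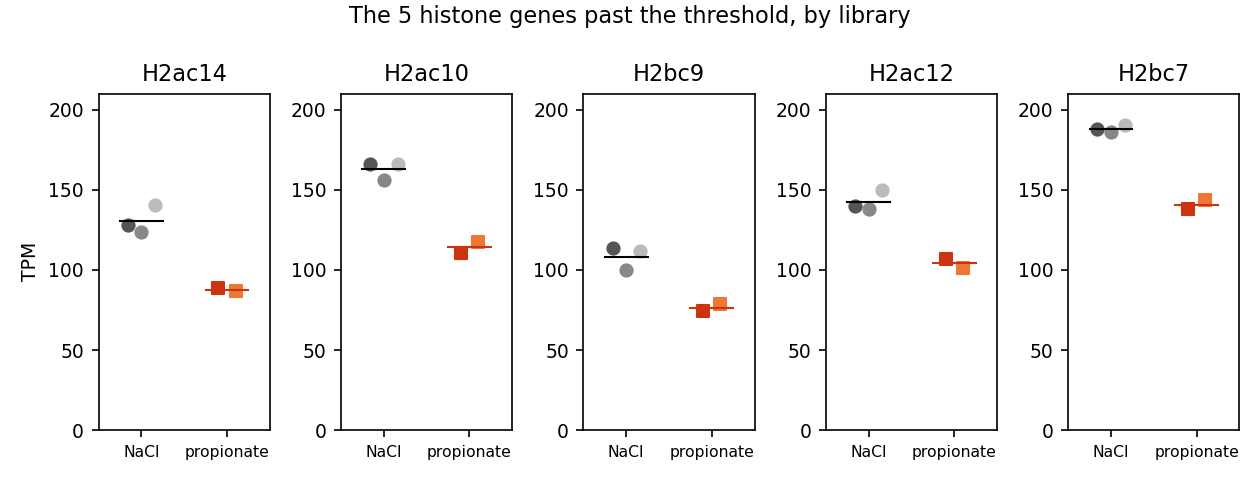
Each panel shows 1 of the 5 histone genes past the threshold, with TPM (y, from 0) in the 3 sodium chloride libraries (grey circles) and the 2 sodium propionate libraries (red and orange squares); bars are group means. In each panel both propionate values lie under all 3 chloride values, from 88.6 and 86.7 TPM against 123 TPM and more for H2ac14 to 138 and 143 TPM against 186 TPM and more for H2bc7.

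H2bc3 had the highest H2B level, with 615, 547 and 605 TPM in chloride and 465 and 492 TPM in propionate. Its groups did not overlap, and its change of -0.30 did not pass (limma adjusted p = 0.132). H2bc8 stood at 398, 350.0 and 369.6 TPM in chloride and at 290.2 and 309.9 TPM in propionate, a change of -0.31 (limma adjusted p = 0.129). H2bc14 stood at 250.2, 234 and 250.3 TPM in chloride and at 209.6 and 205 TPM in propionate, a change of -0.24 (limma adjusted p = 0.184). For these 3 abundant members the means changed by between -19.5% and -15.5%. H2bc1, at 2.46 to 4.69 TPM, and H2bc21, at 1.83 to 2.21 TPM, were the 2 H2B members with changes above 0, of 0.03 and 0.005.

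Many H2A and H2B genes stand head to head and share the stretch between their starts. In 14 such pairs the starts lay 176 to 306 bases apart. Both partners were tested in 13 pairs and both had a change below 0 in 11. The exceptions were H2ac6, one of the members with jumping values, beside H2bc4, and H2bc21 beside H2ac20. The H2A partner had the lower change in 11 of 13 pairs, with medians of -0.39 for H2A and -0.33 for H2B. In the pair of H2ac7 and H2bc7, whose starts are 185 bases apart, the changes were -0.44 and -0.42. In the pair of H2ac14 and H2bc14, 236 bases apart, they were -0.57 and -0.24, so partners did not always have like values. These are descriptions of pairs that share libraries, and the difference between partners was not tested.

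H3 genes carry the tail that bears many of the best known histone marks, and all 10 tested H3 members without jumps had a change below 0. Their changes spanned only -0.35 (H3c8) to -0.20 (H3c2), with a median of -0.25, and 0 passed the test (limma, 6 of all 11 tested H3 members at an unadjusted p under 0.05, and 3 past the threshold with voom). H3c2, the highest, stood at 423, 395 and 428 TPM in chloride and at 330.4 and 394 TPM in propionate. Propionate replicate 3 was just under the lowest chloride library, and the change was -0.20 (limma adjusted p = 0.349). H3c10 stood at 363, 342 and 358 TPM in chloride and at 268 and 311 TPM in propionate, a change of -0.29 (limma adjusted p = 0.158). H3c7 stood at 288, 276 and 299.8 TPM in chloride and at 229 and 268 TPM in propionate, a change of -0.21 (limma adjusted p = 0.307). In these 3 genes, as in the H3 class at large, replicate 2 was the lower of the propionate libraries.

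H4 genes had the highest levels of the family, and all 12 had a change below 0, from -0.41 (H4c2) to -0.14 (H4c12), with a median of -0.25. Of these 0 passed the test (limma, 7 of 12 at an unadjusted p under 0.05, and 1 past the threshold with voom). H4c6 stood at 955, 903 and 1027 TPM in chloride and at 787 and 881 TPM in propionate, a change of -0.21 (limma adjusted p = 0.308). H4c8 stood at 835, 816 and 901 TPM in chloride and at 654 and 763 TPM in propionate, a change of -0.27 (limma adjusted p = 0.205). H4c2 stood at 497, 477 and 552 TPM in chloride and at 348 and 419 TPM in propionate, a change of -0.41 (limma adjusted p = 0.103). In all 3 the groups did not overlap. In H4c3 and H4c1 they did, since propionate replicate 3 reached 283 and 427 TPM, inside the chloride range.

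Linker histone H1 had the smallest median change, -0.20 over 4 tested genes, all 4 below 0. Of these 0 passed the test (limma, 2 of 4 at an unadjusted p under 0.05, and 0 with voom). H1f1 stood at 670.1, 643 and 746 TPM in chloride and at 640.0 and 618 TPM in propionate, a change of -0.12 (limma adjusted p = 0.534). H1f2 stood at 443, 436 and 427 TPM in chloride and at 385 and 427 TPM in propionate, so its groups overlapped, with a change of -0.10 (limma adjusted p = 0.587). H1f5, at 138, 124 and 149 TPM in chloride and 102 and 116 TPM in propionate, had the largest H1 change, -0.33 (limma adjusted p = 0.177). H1f3 had a change of -0.28 at 30.5 to 42.8 TPM. H1f4 was listed at 0.0709 to 0.367 TPM and was not tested, but 2 models of H2bc6 cover 1643 of its 1930 bases on the same strand. These bases are 41.7% of each of the 2 models. Together with 1 further model these 2 gave H2bc6 177, 174 and 171 TPM in chloride and 141 and 164 TPM in propionate. Reads in the bases that H1f4 shares with H2bc6 cannot be told apart.

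Summing members of a class puts back reads exchanged between near-identical genes of that class. Without the 4 members with jumping values, the 62 others summed to 13536 ± 580 TPM (SD, n = 3) in chloride and 11230 ± 819 TPM (SD, n = 2) in propionate, a change of -17.0%. By library the sums were 13605, 12925 and 14079 TPM in chloride and 10651 and 11809 TPM in propionate. The groups did not overlap. Histone RNA made up 1.36%, 1.29% and 1.41% of all TPM in chloride and 1.07% and 1.18% in propionate.

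Changes of the class sums stood in the same order as the class medians of the change. The H2A sum went from 2199 ± 101 to 1671 ± 142 TPM, a change of -24.0%, or of -22.6% with the jumping members. The H2B sum went from 2687 ± 113 to 2159.6 ± 40.1 TPM (-19.6%), and its propionate libraries were close together at 2131 and 2188 TPM. The H3 sum went from 2683 ± 78.5 to 2258 ± 256 TPM (-15.8%), and the H4 sum from 4668 ± 265 to 3965 ± 351 TPM (-15.1%). The H1 sum went from 1299.8 ± 61.3 to 1177 ± 29.4 TPM (-9.41%). Any reads of H1f4 counted in H2bc6 would stand in the H2B sum and be missing from the H1 sum, which summing by class does not put back. In all 5 classes both propionate libraries lay under all 3 chloride libraries. With the jumping members the H2A sum of propionate replicate 3, 2283 TPM, was barely under that of chloride replicate 3, 2286 TPM. Without them, H2A made up 16.1% to 16.3% of the summed histone TPM in chloride and 14.7% and 14.996% in propionate. H1 then made up 9.50% to 9.69% in chloride and 10.9% and 10.1% in propionate. With the jumping members the H2A share was 18.2%, 19.7% and 16.2% in chloride and 14.8% and 18.5% in propionate, so its groups overlapped. The H1 share was then 9.28%, 9.20% and 9.66% in chloride and 10.8% and 9.72% in propionate. Such sums over chosen members were not tested. Leaving out propionate replicate 2 gave a log2 ratio of -0.31 for the H2A sum, and leaving out propionate replicate 3 gave -0.49, both without the jumping members. For the H3 sum these values were -0.14 and -0.37, and for the H4 sum -0.15 and -0.33. With the jumping members the H2A values were -0.13 and -0.66.

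**Figure D3:**
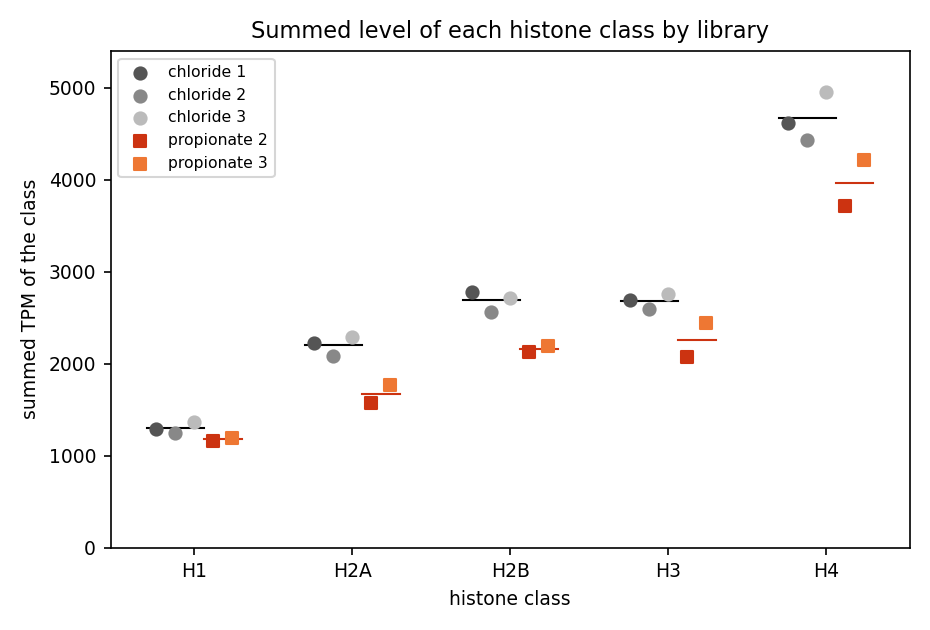
Points are the summed TPM of each histone class (y, from 0) in each library, grey circles for sodium chloride and red or orange squares for sodium propionate, with bars at the group means; the 4 members with jumping values are left out. Both propionate points lie under the 3 chloride points in each class, most narrowly in H1, at 1157 and 1198 TPM against 1243 TPM and more.

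The genome groups did not differ much from one another in their sums. In propionate the change was -18.7% for the first chromosome 13 group, -16.3% for the second and -16.4% for the chromosome 3 group, again without the jumping members. With the jumping members included, the median change of the tested members was -0.33 in the first group (24 of 24 below 0). It was -0.27 in the second group (27 of 29 below 0), which holds H2ac6. On chromosome 3, with H2ac18, H2ac19 and H3c14, it was -0.26 (6 of 8 below 0). Most of the chromosome 3 sum came from H2ac20, with 385 of 513 TPM in the chloride mean. Differences between the groups were not tested.

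The jumping values occurred where other annotated genes cover the same bases. H2ac19 on chromosome 3 was listed at 317, 447 and 0 TPM in chloride and at 0 and 401 TPM in propionate. It lies whole within Gm20632 on the other strand, which was listed at 66.2, 0 and 154 TPM in chloride and at 128 and 0 TPM in propionate. High values of the gene met low or 0 values of Gm20632 in the same libraries. Gm47311, also on the other strand, covers 409 bases of H2ac19 (77.5%) and was listed at 56.5, 101 and 50.4 TPM in chloride and at 18.5 and 98.8 TPM in propionate. Its 3 highest values, unlike those of Gm20632, fell in the libraries where H2ac19 was high. H2ac18 was listed at 0, 104 and 0 TPM in chloride and at 0 and 95.0 TPM in propionate. H3c14 was listed at 0, 1.28 and 42.0 TPM in chloride and at 0 and 3.63 TPM in propionate. These last genes overlap Gm20634 on the same strand and Gm20633 and Gm47313 on the other. H2ac6, with the largest positive fitted change of the set, was listed at 0, 26.1 and 0 TPM in chloride and at 11.9 and 16.7 TPM in propionate (limma adjusted p = 0.388), and it passed the test only when chloride replicate 2 was left out. It overlaps Gm24991 on the same strand, listed at 59.0, 8.82 and 59.0 TPM in chloride and at 18.7 and 26.5 TPM in propionate. The direction of these 4 members is therefore not readable from single genes.

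The chromosome 3 genes H3c13 and H2bc18 were at or near 0 TPM in most libraries, with 2.66 TPM for H2bc18 in chloride replicate 3 as the highest value. Their models lie whole within Gm20628 on the other strand, listed at 195, 186 and 201 TPM in chloride and at 162 and 159.7 TPM in propionate. H2bc11 drew most of its level from 1 assembled transcript that joins bases of H2bc12 to it, at 115, 102 and 92.0 TPM in chloride and 89.3 and 87.9 TPM in propionate. In all, 14 members overlap a transcript of another gene above 10 TPM, 10 of them one on the other strand.

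Genes that act on the histone genes and their messengers were compared next, by lists chosen for their roles. Over all genes tested, 55.5% had a change below 0, 0.504% fell and 1.31% rose, and at an unadjusted p under 0.05 limma gave 8.91% lower and 7.93% higher. By voom 2.59% of them fell and 5.10% rose. For transcription and 3′ processing, 26 of 35 tested genes had a change below 0 with a median of -0.10, and 0 rose or fell (at an unadjusted p under 0.05 limma gave 4 lower and 0 higher, and 1 lower past the threshold with voom). Slbp, the stem-loop binding protein, stood at 83.3, 79.3 and 83.3 TPM in chloride and at 71.2 and 84.8 TPM in propionate. Its propionate libraries fell on either side of the chloride range (change -0.08, limma adjusted p = 0.767). Npat, the histone locus coactivator, was at 9.02 ± 0.971 TPM (SD, n = 3) in chloride and 7.997 ± 0.622 TPM (SD, n = 2) in propionate (limma adjusted p = 0.590). Casp8ap2, a further protein of the histone locus body, was at 18.1 ± 0.815 and 16.5 ± 0.497 TPM (limma adjusted p = 0.585). The smallest p-values of the list were those of Nelfe, a subunit of the NELF pausing complex, and Nfyc, a subunit of NF-Y. Their changes were -0.34 and -0.29, with limma adjusted p-values of 0.172 and 0.224.

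Genes of histone messenger decay had a median change of -0.11 over 24 tested, of which 21 were below 0, and 0 rose or fell (at an unadjusted p under 0.05 limma gave 5 lower and 0 higher, and 1 lower past the threshold with voom). Lsm2, a subunit of the Lsm ring, stood at 23.0, 26.4 and 26.3 TPM in chloride and at 14.8 and 6.15 TPM in propionate, a change of -1.30 (limma adjusted p = 0.0592). Among the alternatives that keep all 5 libraries, it passed with a minimum mean of 5 TPM, with voom and with the replicate number as a block. Lsm6, another subunit, had a change of -0.34 (limma adjusted p = 0.128). Histone chaperones and chromatin assembly factors had a median change of -0.12 over 29 tested, of which 26 were below 0, and 0 rose or fell (at an unadjusted p under 0.05 limma gave 5 lower and 0 higher, and 2 lower past the threshold with voom). In that list Nasp, a chaperone of H3 and H4, had a change of -0.36 (limma adjusted p = 0.126), and Dnajc9, a histone co-chaperone, one of -0.33 (limma adjusted p = 0.1204).

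S phase genes, which are expressed in the same stretch of the cell cycle as histone genes, had a median change of -0.26 over 38 tested, near that of the histone members. Of these 36 had a change below 0, 2 fell and 0 rose (at an unadjusted p under 0.05 limma gave 20 lower and 0 higher, and 10 lower past the threshold with voom). Mcm5, a subunit of the replicative helicase, stood at 60.2, 56.4 and 60.2 TPM in chloride and at 36.6 and 41.4 TPM in propionate, a change of -0.59 (limma adjusted p = 0.0274). Mcm4, another subunit, stood at 50.6, 45.6 and 46.3 TPM in chloride and at 32.0 and 34.3 TPM in propionate, a change of -0.51 (limma adjusted p = 0.0428). Both calls were lost when any 1 library was left out. The part of a change in the share of S phase cells in the histone values was not tested.

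Histone genes outside the set had a median change above 0. This list of 14 tested genes holds replacement and variant histones, many of which are made throughout the cell cycle, and genes of small histone clusters on chromosomes 6 and 11 whose names fall outside the rule, among them H2bu2, H2aw, H3f4 and H4f16. The median was 0.13, with 8 genes above 0 and 6 below, and 1 rose and 0 fell (at an unadjusted p under 0.05 limma gave 4 higher and 0 lower, and voom passed 3). H2bu2, an H2B gene on chromosome 11 (58948920 to 58949533), stood at 72.2, 60.8 and 66.4 TPM in chloride and at 94.4 and 97.5 TPM in propionate, a change of 0.53 (SE 0.0991, limma adjusted p = 0.0418), and the call was lost when any 1 library was left out. All H2bu2 values in propionate lay above all in chloride, the opposite order to that of H2bc7 and H2bc9. H3f4, an H3 gene near it, stood at 2.08, 1.75 and 2.87 TPM in chloride and at 3.39 and 4.47 TPM in propionate. Its change of 0.61 did not pass (limma adjusted p = 0.161). Outside these clusters, H1f0 stood at 271, 267 and 253 TPM in chloride and at 335 and 418 TPM in propionate. Its change of 0.51 did not pass (limma adjusted p = 0.0584). H3f3a stood at 173, 167 and 184 TPM in chloride and at 201 and 289 TPM in propionate. Its change was 0.46 (limma adjusted p = 0.158). The difference between this list and the set was not tested.

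**Figure D4:**
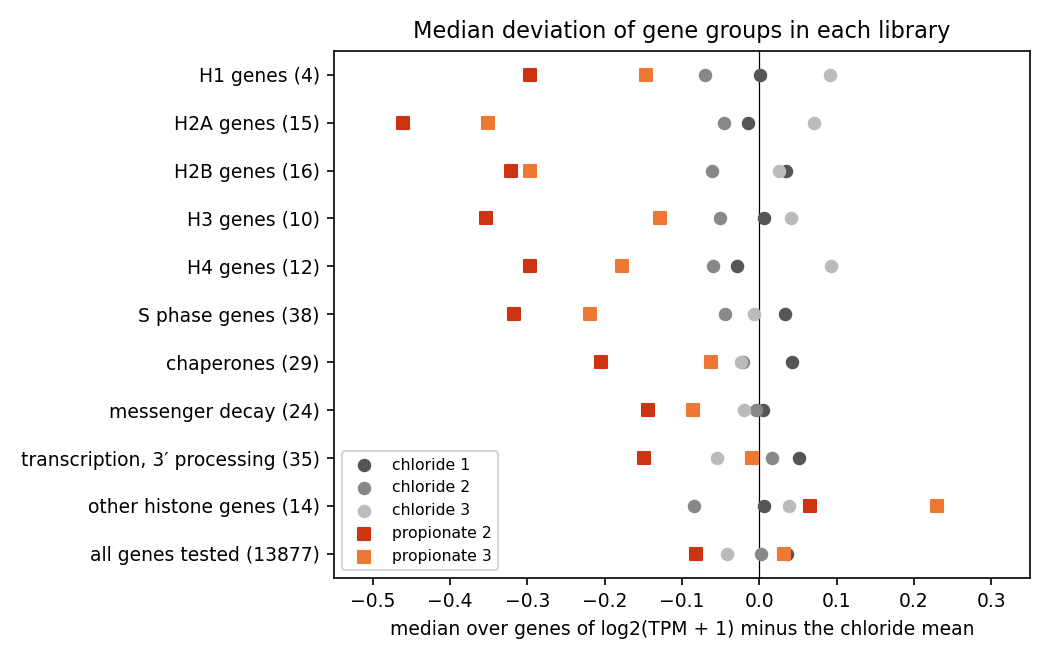
For each group of genes (rows, number tested in brackets) the points give the median over genes of log2(TPM + 1) minus the chloride mean in each library; grey circles are sodium chloride and red or orange squares sodium propionate, and the 4 histone members with jumping values are left out. H2A genes lie farthest to the left, at -0.46 and -0.35 in propionate, S phase genes at -0.32 and -0.22, and histone genes outside the set to the right, at 0.07 and 0.23.

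Aligned bases over all transcripts came to 6.53 to 7.03 Gb per library. Of 8 glioma and neural progenitor markers 7 passed the filter, and 1, Fabp7, rose. S100b, a glial marker, stood at 208, 194 and 203 TPM in chloride and at 147 and 167 TPM in propionate, a change of -0.36 that did not pass (limma adjusted p = 0.0935). Leukocyte markers Ptprc, Aif1, Cd3e and Itgam did not exceed 0.0644 TPM, and the 5 leukocyte markers together came to 6.25 to 7.64 TPM in chloride and 10.1 to 12.2 TPM in propionate, nearly all of it Cd68 (limma adjusted p = 0.0592). Endothelial and neuronal markers did not exceed 0.157 TPM in sum, and the 2 fibroblast markers came to 0.63 to 1.01 TPM in chloride and 1.91 to 2.49 TPM in propionate. The part of other cell types in the histone values was not tested.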

How the data were processed

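Libraries came from total RNA and a stranded total RNA kit, per the labels' protocols. HISAT2, StringTie, fastp, bcl2fastq and the build mm10 are named in the submitters' processing notes. Per the file headers, StringTie 2.1.1 estimated coverage, FPKM and TPM per transcript of 1 merged annotation with no strand option, and other versions are not given in the sources used here. The authors' deposited values are thus TPM, FPKM and coverage, not counts, with 157895 transcripts in each file.

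Here gene TPM was the sum over reference transcripts and over assembled transcripts, each counted in the reference gene that it overlaps most on the same strand. The 66 members had 71 reference transcripts and 1 assembled transcript, in H2bc11. Only H2bc11 therefore differs from a sum over reference lines. The 13877 genes with a mean of at least 1 TPM entered limma 3.58.1 (R 4.3.3) as log2(TPM + 1), which understates changes of low genes, with a trended prior and group as the only term, two-sided, at a Benjamini-Hochberg adjusted p of 0.05. All 5 libraries entered each fit, apart from those that leave 1 out. A permutation of 3 and 2 libraries for 1 gene has 0.1 as its smallest p. Libraries of a group differed with an SD of log2 differences of 0.321 to 0.339, and at most 0.0649% of genes had identical values.

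Members, lists and tests were chosen with earlier results of these data known. Values in every library are printed for the 3 members of each class with the highest mean, each member past the threshold and the 2 with the largest positive change. From each related list come up to 4 genes past the threshold or else the 2 with the smallest p, and always Slbp, Npat and Casp8ap2. Other genes were named after their values were seen. The alternatives used voom (aligned bases divided by 100), a pseudocount of 0.1 TPM, a filter at 5 TPM or none, FPKM, reference transcripts only, TPM over protein-coding genes, scaling by median of ratios, a replicate block, leaving out each library, and, chosen after seeing the data, leaving out the 4 members with jumping values. Stem-loops came from GENCODE M21 transcripts and promoters from RefSeq. Protein sequences were not used here.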

Additional observations from a re-analysis of the deposited data

How the results depend on the processing

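The direction of the set held throughout and the calls did not. The median change stayed below 0 in every alternative, from -0.36 to -0.24, both extremes with 1 propionate library left out, and all other alternatives lay between. Members past the threshold and lower, 5 as reported, numbered 8 with a minimum mean of 5 TPM, 9 with median-of-ratios scaling, 24 with TPM over protein-coding genes, 19 with voom, 0 without a filter, 0 with reference transcripts only and 0 with any 1 library left out. Values of the 5 called members were the same with reference transcripts only, where the fit over all genes differed. Members past the threshold and higher were 0, except 1 (H2ac6) without chloride replicate 2, so that leaving out libraries gave 0 to 1. Over all genes, 70 lower and 182 higher as reported, the counts were 118 lower with FPKM, 157 and 371 with median-of-ratios scaling, 405 and 629 with TPM over protein-coding genes, 359 and 708 with voom, 6 and 5 with reference transcripts only and 1 and 2 without a filter. Leaving out libraries gave 7 to 46 lower and 8 to 126 higher. Leaving out libraries gave log2 ratios of -0.38 to -0.17 for the sum of all classes, -0.66 to -0.13 for H2A, -0.38 to -0.14 for H3 and -0.33 to -0.15 for H4, with the 4 members of jumping values included. Without these 4, an alternative chosen after seeing the data, the ranges were -0.35 to -0.20 for all classes, -0.49 to -0.31 for H2A, -0.37 to -0.14 for H3 and -0.33 to -0.15 for H4. Among the members and list genes chosen by the rules given above, H2ac19, H2ac18 and Slbp had reversed changes. That of H2ac19 was 0.17 without chloride replicate 2 and 2.94 without propionate replicate 2. Over libraries left out it ranged from -5.71 to 2.94. That of H2ac18 was -0.064 without chloride replicate 1 or 3 and -2.24 without propionate replicate 3, in a range of -2.24 to 4.35. Slbp was at 0.048 without propionate replicate 2. Other members were not followed in this way. For example, in propionate replicate 3 alone H2bc1 (2.46 TPM) lay under all chloride libraries and H2ac21 (6.67 TPM) above them, against the sign of their changes. Apart from the settings that leave out samples or genes, the cause was not tested.

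The labels do not say that replicate numbers mark shared cultures. Deviations of same-numbered libraries correlated at -0.22 and -0.20. With 2 propionate libraries the deviations of 1 mirror those of the other, so these values cannot show whether the numbers mark pairs. With the replicate number as a block, 2 members were lower and 0 higher: H2ac14, one of the 5 (-0.58, limma adjusted p = 0.0441), and H3c14, one of the 4 with jumping values (-2.20, limma adjusted p = 0.000385). Lsm2 also passed with the block (-1.36, limma adjusted p = 0.00081), and H2ac18 reversed to -0.064. In that fit chloride replicate 1, alone under its number, adds nothing to the change. Precision is limited by 3 against 2 libraries, and counts of reads were not analysed here.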
